A study of Mus musculus with 8 samples.

Results

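The genes described here are the matrix metalloproteinases (Mmp), the Adamts proteases and their tissue inhibitors (Timp): 41 genes taken by family name, 18 Mmp, 19 Adamts and 4 Timp genes, out of 52636 genes in the count tables. They were measured by RNA-seq in 8 samples of malignant mesothelioma from mice, a cancer of the cells that line the chest and abdomen. The triple knockout group holds 6 samples whose names give Nf2, Cdkn2a and Bap1, and the double knockout group holds 2 samples whose names give Nf2 and Cdkn2a. By these names a knockout of Nf2 (merlin, a regulator of Hippo signalling) and of Cdkn2a (cell cycle inhibitors) is common to both groups, and the groups differ by Bap1, a deubiquitinase of histone H2A. The series title speaks of conditional mouse models, and the labels used here give no Cre driver, strain, age or sex of the animals. No sample with intact Nf2 and Cdkn2a, and no normal mesothelium, was analysed here. The growth protocol describes cells kept in medium with serum and insulin. The design asks which genes differ when Bap1 is lost in addition.

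Mmps are zinc-dependent proteases that cut collagens, laminins, fibronectin and other proteins outside the cell. Most are secreted as inactive proenzymes and are opened by other proteases, and some are anchored in the membrane, where Mmp14 activates pro-Mmp2 with Timp2 as a partner. Adamts proteases carry thrombospondin repeats and cut proteoglycans such as aggrecan and versican, or trim the ends of procollagens. Timps bind the active site of Mmps, and Timp3 also holds back several Adamts and Adam proteases. In mesothelioma these families have been studied for their part in invasion of the pleura.

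Total counts ran from 28326756 to 30232440 in the triple samples, and stood at 32082535 and 26847202 in double samples 1 and 2. Double sample 1 stood apart: mitochondrial genes took 4.04% of its counts, against 1.16% to 2.33% in the other 7 samples, and its scaling factor was 0.771, against 0.994 to 1.10. Bap1 was counted at 43.1 to 72.1 CPM (reads of a gene scaled to a common library size) in the triple samples and at 106 and 71.2 CPM in the double samples, with an adjusted p of 0.122. Nf2 was counted at 62.7 to 100 CPM in the triple samples, against 165 and 109 CPM in the double samples, and Cdkn2a at 4.05 to 8.76 CPM in the triple samples, against 1.54 and 5.16 CPM in the double samples. All 3 genes were thus still counted in both groups, and whole-gene counts check the labels only weakly. Msln (mesothelin) was counted in all 8 samples, at 12.6 to 194 CPM in the triple and 251 and 342 CPM in the double samples, while the mesothelial markers Wt1, Upk3b and Muc16 exceeded 2 CPM in triple sample 3 alone. Macrophage transcripts were counted in all samples, as were those of muscle. The 10 embryonic muscle markers summed to 5.17 to 164 CPM in the triple samples and to 6449 and 2057 CPM in the double samples, and 10 adult muscle markers summed to 131 to 12109 CPM in the triple samples and to 66226 and 2712 CPM in the double samples.

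All 41 genes were found in the tables, and 38 passed the filter on low counts. In the comparison of triple with double samples, 5 of these 38 were called at an adjusted p under 0.05 (edgeR's quasi-likelihood test with Benjamini-Hochberg adjustment over 17709 genes), which is 13.2%, against 8.35% of all genes tested. Of the calls 4 were higher in the triple samples (Mmp9, Mmp10, Mmp19 and Mmp23), where 2.94% of all genes were called higher. The only call in the other direction was Mmp28, where 5.41% of all genes were called lower. All 5 calls were Mmp genes. Of the 16 Mmp genes tested 11 did not pass, with a median log2 fold change over the family of 0.87, against 0.02 over all genes tested. None of 18 Adamts genes was called by edgeR or limma-voom, 4 had an unadjusted p under 0.05 and DESeq2 called 2, and their median log2 fold change was 0.19. Over all genes tested, DESeq2 called 17.0% and limma-voom 6.04%. By edgeR 27.9% of all genes tested had an unadjusted p under 0.05, the background for such counts here and below. None of 4 Timp genes was called by edgeR or limma-voom, 1 had an unadjusted p under 0.05 and DESeq2 called 1, with a median of -0.21. In 10 of the 38 genes, or 26.3%, the groups did not overlap, close to the 24.1% of all genes tested. The triple samples were above in 9 of the 38 and below in 1, against 12.8% and 11.4% of all genes tested. The calls rested on individual samples. Without double replicate 1 only Mmp28 kept its call, without double replicate 2 there were 10 calls, 4 of them among the 5 above, and without a triple sample there were 2 to 5. In a bulk sample, fewer cells of a type and less RNA per cell cannot be told apart.

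**Figure D1:**
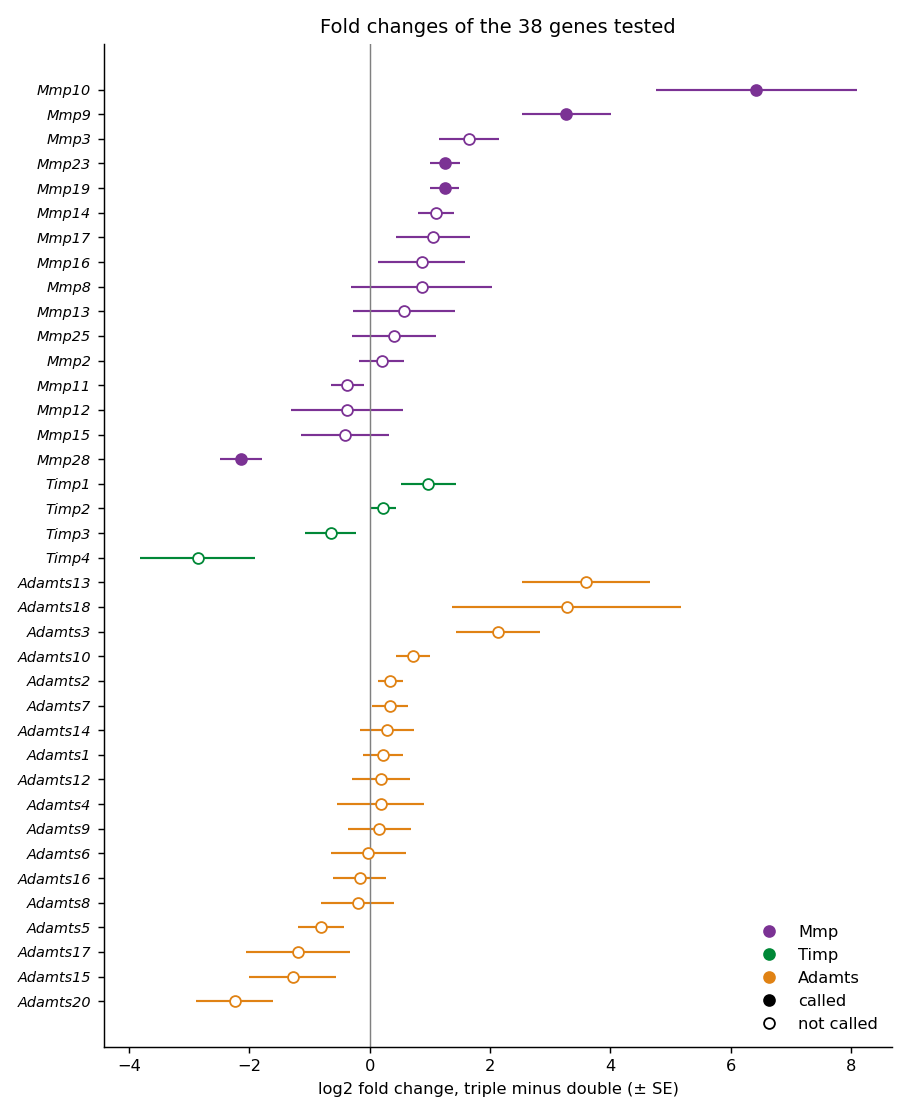
Log2 fold change, triple minus double, with its standard error (bars) for the 38 genes tested, ordered within each family; filled points were called and open points were not. Mmp10, Mmp9, Mmp23 and Mmp19 lie to the right of 0 and Mmp28 to the left, while all Timp and Adamts points are open.

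The gelatinases Mmp2 and Mmp9 cut denatured collagen and basement membrane collagen IV, and they differed in how they parted the groups. Mmp9 (chromosome 2, 164940780 to 164955850, GRCm38) had 363, 896 and 1586 CPM as its lowest, median and highest value in the triple samples, against 36.2 and 156 CPM in double samples 1 and 2. Every triple sample was above both double samples. The exact permutation p over the 28 ways to split the samples was 0.0357, the smallest that it can give. It was the same for Mmp3 and Mmp14, whose groups also did not overlap and which edgeR did not call. Mmp9 rose by 3.27 ± 0.74 on the log2 scale (SE; edgeR adjusted p = 0.0336). The call was lost without double replicate 1 (log2 fold change 2.56, adjusted p = 0.167). It was also lost when triple replicate 1, 2, 3, 4 or 6 was left out (3.02 to 3.32, adjusted p = 0.0524 to 0.0637). With the description code as a term it was lost as well (3.37, adjusted p = 0.0566). The code is a sample label of unknown meaning, entered with 2 levels, SN930 and all other codes pooled. The direction held in each fit. Mmp2 had 409, 508 and 606 CPM in the triple samples, against 662 and 231 CPM in the double samples. The triple samples were close together and the double samples lay on either side of them, with a log2 fold change of 0.20 ± 0.37 (adjusted p = 0.752).

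Markers of other cell types stood beside Mmp9 as follows. The 10 macrophage markers summed to 1854 to 2987 CPM in the triple samples, against 919 and 1920 CPM in the double samples, and of 9 tested 2 rose, Cd68 by 1.26 ± 0.27 (edgeR adjusted p = 0.0279) and Itgam by 1.89 ± 0.46 (adjusted p = 0.0430) on the log2 scale. The other 7 did not pass, among them Cd14 with means of 32.6 CPM in the triple and 65.3 CPM in the double samples (adjusted p = 0.177), Marco was not tested, and no macrophage marker was called without double replicate 1. By edgeR 2.94% of all genes tested were called higher. Of the macrophage markers DESeq2 called 4 (Cd68, Csf1r, Itgam and Mrc1) and limma-voom 3, against 17.0% and 6.04% of all genes tested. Ctsk (cathepsin K, the collagen-cutting cathepsin of osteoclasts) rose by 2.79 ± 0.57 (edgeR adjusted p = 0.0244). Its level was 323, 970 and 1449 CPM in the triple samples, against 103 and 158 CPM in the double samples. The order of the 8 samples by Ctsk was the same as by Mmp9. The ratio of Mmp9 to Ctsk in CPM was 0.92 to 1.12 in the triple samples, against 0.35 and 0.99 in double samples 1 and 2. The 10 osteoclast markers, a list written after the levels of Ctsk and Acp5 were seen and therefore given without a test, summed to 724 to 3047 CPM in the triple samples, against 283 and 478 CPM in the double samples. In 6 of the 10 (Ctsk, Acp5, Ocstamp, Atp6v0d2, Nfatc1 and Tnfrsf11a) every triple sample was above both double samples, against 12.8% of all genes tested. Of these, Ctsk and Acp5 were the ones seen before the list was written. Dcstamp, Calcr, Itgb3 and Oscar overlapped between the groups, and none of the 10 was at 0 in any sample. Triple sample 5 was the lowest and triple sample 6 the highest triple sample for Mmp9, Ctsk and Acp5 alike. The 10 neutrophil markers summed to 16 to 37.7 CPM in the triple samples, against 92.4 and 18.7 CPM in the double samples. The part of these cell types in the difference of Mmp9 was not tested.

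**Figure D2:**
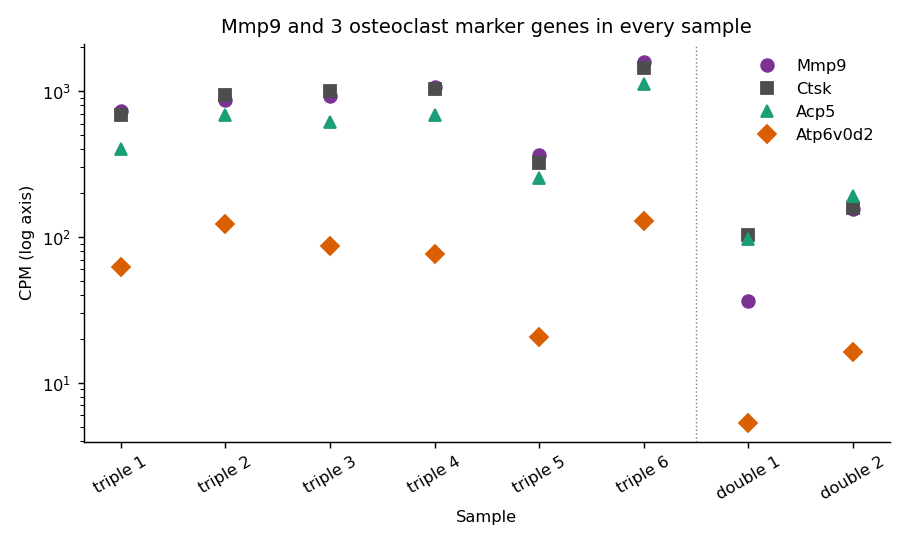
Levels of Mmp9 and of the osteoclast marker genes Ctsk, Acp5 and Atp6v0d2 in each of the 6 triple and 2 double samples, in CPM on a log axis; each point is 1 sample. Mmp9 ran from 363 to 1586 CPM in the triple samples, against 36.2 and 156 CPM in the double samples, and Ctsk lay close to it in all samples but double sample 1.

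Of the 41 genes 6, together with 4 Mmp genes outside the list, lie within 427 kb of chromosome 9, in the order Mmp13, Mmp12, Mmp1b, Mmp3, Mmp1a, Mmp10, Mmp8, Mmp27, Mmp20 and Mmp7. Mmp10 and Mmp3 are stromelysins, which cut proteoglycans, laminin and fibronectin and activate other Mmps. Mmp13 and Mmp8 are collagenases, Mmp12 is the macrophage metalloelastase and Mmp7 is matrilysin. The promoters of 3 of these neighbours are shown because the genes lie in 1 cluster and parted the groups to a different extent. That of Mmp14 is shown as the membrane-bound Mmp of highest level, and that of Mmp28 as the only gene called lower. Each is the 250 bases before the RefSeq start on GRCm38.p6, 5′ to 3′, with capitals for matches on either strand to 3 short motifs. The motif of AP-1 is TGANTCA. The TATA box is TATAAA. That of the Ets factor PEA3 is AGGAAG.
Mmp10: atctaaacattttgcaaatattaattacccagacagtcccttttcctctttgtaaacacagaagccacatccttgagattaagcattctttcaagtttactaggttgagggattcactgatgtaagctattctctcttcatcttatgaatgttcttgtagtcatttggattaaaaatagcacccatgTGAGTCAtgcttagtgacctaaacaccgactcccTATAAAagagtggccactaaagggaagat
Mmp3: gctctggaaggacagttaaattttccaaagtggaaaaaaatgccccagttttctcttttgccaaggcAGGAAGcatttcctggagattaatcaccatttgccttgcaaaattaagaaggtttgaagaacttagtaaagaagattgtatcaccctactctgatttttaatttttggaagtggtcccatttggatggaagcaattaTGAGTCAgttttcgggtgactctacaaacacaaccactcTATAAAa
Mmp13: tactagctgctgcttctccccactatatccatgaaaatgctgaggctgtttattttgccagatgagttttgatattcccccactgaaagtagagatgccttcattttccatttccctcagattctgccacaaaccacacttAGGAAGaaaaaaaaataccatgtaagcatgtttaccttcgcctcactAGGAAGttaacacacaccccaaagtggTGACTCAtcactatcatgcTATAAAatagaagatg
Mmp14: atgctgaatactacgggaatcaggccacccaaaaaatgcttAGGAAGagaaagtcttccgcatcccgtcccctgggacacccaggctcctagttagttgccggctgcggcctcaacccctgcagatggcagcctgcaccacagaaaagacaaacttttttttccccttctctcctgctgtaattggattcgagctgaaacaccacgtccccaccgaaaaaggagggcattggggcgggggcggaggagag
Mmp28: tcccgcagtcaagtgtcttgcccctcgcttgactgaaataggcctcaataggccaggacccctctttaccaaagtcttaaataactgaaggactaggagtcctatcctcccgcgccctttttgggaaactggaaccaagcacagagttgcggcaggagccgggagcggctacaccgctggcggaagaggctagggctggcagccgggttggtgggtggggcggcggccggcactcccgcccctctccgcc
They lie at chr9:7502092-7502341, chr9:7445572-7445821, chr9:7272264-7272513 and chr14:54431348-54431597 on the plus strand for Mmp10, Mmp3, Mmp13 and Mmp14, and at chr11:83463041-83463290 on the minus strand for Mmp28. The match to TGANTCA began 63 bases before the start in Mmp10, 46 in Mmp3 and 35 in Mmp13, and in each a match to TATAAA followed it. Mmp14 held a match to AGGAAG only, and Mmp28 held no match to any of the 3. The table of promoters held 27 of the 41 genes, of which 5 had a match to TGANTCA (Mmp3, Mmp7, Mmp10, Mmp12 and Mmp13, all in the chromosome 9 cluster). Mmp8, also in the cluster, had no such match. Of the 27 genes 5 had a match to TATAAA and 11 to AGGAAG. Among all 32851 promoters of that length 6.75% had a match to TGANTCA, 12.4% to TATAAA and 29.5% to AGGAAG. A match describes letters in this window and is not a measured binding site.

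Mmp10 (chromosome 9, 7502352 to 7510240) was near absent in the double samples, at 0.61 and 0.36 CPM, and stood at 4.53, 33.5 and 121 CPM as lowest, median and highest value in the triple samples. Triple sample 1 had the highest level, and triple samples 2 and 3 were at 4.53 and 4.62 CPM, still above both double samples. Mmp10 rose by 6.42 ± 1.67 on the log2 scale (edgeR adjusted p = 0.0499), the largest fold change of the 38 genes in the gene with the highest SD of log2 CPM within the triple group. Its adjusted p was 0.0505 with a filter of 1 CPM in 2 samples, 0.219 by limma-voom, and 0.0655 to 0.270 without either double replicate or triple replicate 1, 4, 5 or 6, with log2 fold changes of 5.55 to 6.82. With the description code as a term it was 0.0815. Mmp3 (7445822 to 7455975) had 39.9, 111 and 121 CPM in the triple samples, against 21.8 and 37.4 CPM in the double samples. The groups did not overlap, with the lowest triple value just above double sample 2. Its log2 fold change of 1.65 ± 0.49 did not pass the test (adjusted p = 0.0723), and it passed without triple replicate 3 (adjusted p = 0.0406) and by DESeq2 (adjusted p = 0.0103).

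The other genes of the cluster overlapped between the groups. Mmp13 stood at 10.5, 52.7 and 137 CPM in the triple samples, against 25.4 and 48.1 CPM in the double samples (adjusted p = 0.688). Triple sample 6 was the highest, and triple samples 2 and 5 were below both double samples. Mmp12 had 1.51, 6.91 and 24.6 CPM in the triple samples, against 4.33 and 21.9 CPM in the double samples, with an adjusted p of 0.818. Mmp8 was at 0.32 to 1.72 CPM in 5 triple samples and at 4.94 CPM in triple sample 3, against 1.34 and 0.25 CPM in the double samples. Mmp7 had 3 counts in triple sample 5 and none in the other 7 samples, where 3 counts, the limit that a count of 0 allows, correspond to 0.095 to 0.121 CPM. Of the cluster genes outside the list, Mmp20 had no count in any sample and Mmp1a, Mmp1b and Mmp27 stayed at or below 1.21 CPM. Exons of Mmp12 and Mmp1b overlap on opposite strands. Mmp11 (stromelysin-3), which lies on another chromosome, had 12.2, 20.8 and 24.8 CPM in the triple samples, against 27.4 and 23.8 CPM in the double samples (adjusted p = 0.399). The collagenases, 2 genes, had no call by edgeR, DESeq2 or limma-voom, and 0 had an unadjusted p under 0.05.

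**Figure D3:**
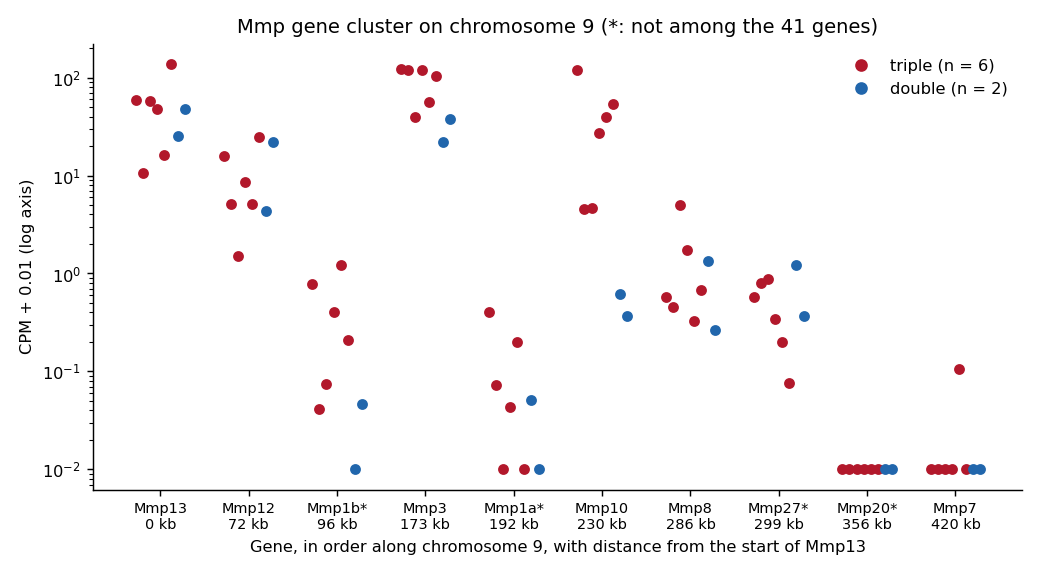
Levels of the 10 Mmp genes along the chromosome 9 cluster in CPM + 0.01 on a log axis, in gene order with the distance from the start of Mmp13; each point is 1 of 6 triple or 2 double samples. Mmp10 and Mmp3 are the listed genes of the cluster whose triple points all lie above the double points.

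The membrane-bound Mmps were led by Mmp14 (MT1-MMP), a collagenase of the cell surface and the activator of pro-Mmp2. Mmp14 (chromosome 14, 54431612 to 54445364) had 559, 755 and 1095 CPM in the triple samples, against 331 and 383 CPM in the double samples. All triple samples were above both double samples. The log2 fold change of 1.10 ± 0.30 fell just short of the threshold (edgeR adjusted p = 0.0547), and the gene was called by limma-voom (adjusted p = 0.0442) and DESeq2 (adjusted p = 0.00520). Mmp15 stood at 22.3 to 57.9 CPM in 5 triple samples and at 162 CPM in triple sample 5, against 37.0 and 123 CPM in the double samples (adjusted p = 0.741). Mmp17, anchored by a lipid tail, had its highest level in the same sample, at 68.0 CPM, with 12.4 to 32.9 CPM in the other triple samples and 16.8 and 12.7 CPM in the double samples. Mmp16 had 9.20, 13.0 and 19.7 CPM in the triple samples, against 1.25 and 13.5 CPM in the double samples, so that double sample 2 lay within the triple range and double sample 1 below it. It was called without double replicate 2 (log2 fold change 3.44, adjusted p = 0.00540), where double sample 1 stands alone, and stood at -0.012 without double replicate 1 (adjusted p = 0.996). Mmp25 stayed at or below 3.33 CPM in all samples, and Mmp24, with 11 counts over the 8 samples, was not tested. Of the 5 tested, 0 were called by edgeR, 1 had an unadjusted p under 0.05, and DESeq2 and limma-voom called Mmp14. Mmp23, also anchored in the membrane, is not among these 5 and is described below with Mmp19 and Mmp28.

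Mmp19, Mmp23 and Mmp28 were all called. Mmp19, a secreted Mmp that cuts basement membrane proteins, rose to 43.3, 52.1 and 72.8 CPM (lowest, median, highest) in the triple samples, against 21.7 and 24.5 CPM in the double samples. Its log2 fold change was 1.25 ± 0.24 (chromosome 10, 128790910 to 128800824; edgeR adjusted p = 0.0202). Exons of Mmp19 overlap Tmem198b on the other strand, which had 47.4, 53.6 and 63.7 CPM in the triple samples, against 14.0 and 43.0 CPM in the double samples. Mmp23 lacks the hemopexin domain of other Mmps and is anchored in the membrane as a proenzyme. It had 41.6, 67.9 and 76.5 CPM in the triple samples, against 28.9 and 25.8 CPM in the double samples, and rose by 1.26 ± 0.25 on the log2 scale (chromosome 4, 155650655 to 155653384; adjusted p = 0.0241). Both genes lost their call without double replicate 1, at log2 fold changes of 1.15 and 1.33 that were close to those over all samples (adjusted p = 0.123 and 0.125), and Mmp23 also lost it without triple replicate 1 or 6 (adjusted p = 0.0515 and 0.0535).

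Mmp28 (epilysin, known from keratinocytes and wound repair) went the other way. It had 1.66, 1.76 and 3.39 CPM in the triple samples, against 8.26 and 10.3 CPM in the double samples. Every triple sample was below both double samples. Mmp28 fell by 2.14 ± 0.35 on the log2 scale (chromosome 11, 83440768 to 83463071; edgeR adjusted p = 0.0118), and it kept its call without any 1 of the 8 samples, with adjusted p-values of 0.0119 to 0.0436. Among samples of description code SN930, which marks double sample 1 and triple samples 4 to 6, the log2 fold change was -1.85, and among samples with other codes -2.40. The same 2 values were 4.81 and 2.42 for Mmp9, 6.05 and 6.85 for Mmp10, 1.37 and 1.13 for Mmp19, and 1.12 and 1.40 for Mmp23. All 5 genes had the same direction in both sets. Each set holds a single double sample and 3 triple samples, so these are given as values with no test. In the set of other codes each sample had its own code, SN931 in double sample 2 and SN933 to SN935 in triple samples 1 to 3.

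**Figure D4:**
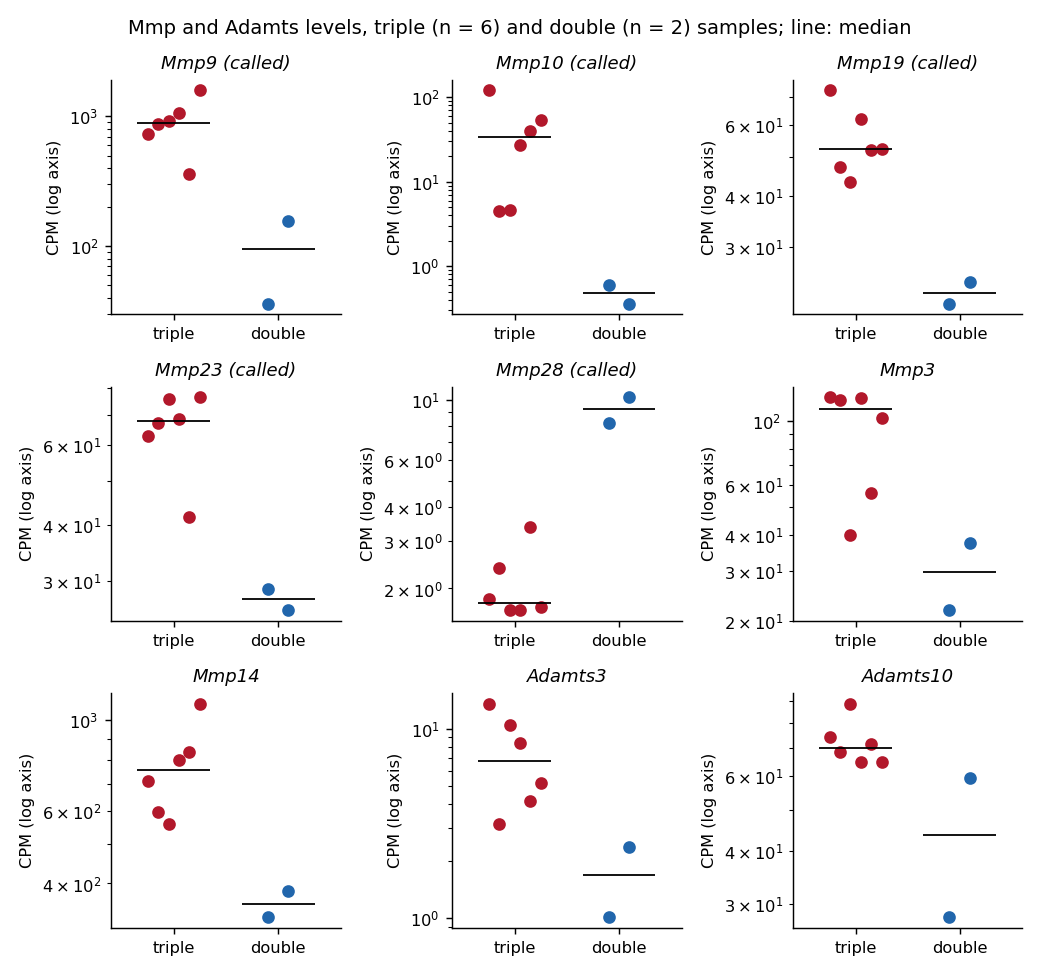
CPM on log axes of the 5 called genes (Mmp9, Mmp10, Mmp19, Mmp23, Mmp28) and of Mmp3, Mmp14, Adamts3 and Adamts10, in 6 triple and 2 double samples; each point is 1 sample and the line is the median. In each panel the groups do not overlap, and Mmp28 is the panel in which the triple samples lie below the double samples.

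The Timps did not part the groups. Timp2 was the highest of the 41 genes per length and the steadiest, at 1035, 1131 and 1331 CPM in the triple samples, against 1153 and 803 CPM in the double samples (log2 fold change 0.23 ± 0.22, adjusted p = 0.516). Timp1 had 165, 247 and 335 CPM in the triple samples, against 57.4 and 189 CPM in the double samples, so double sample 2 lay among the triple samples (0.98 ± 0.46, adjusted p = 0.205). Without double replicate 2 Timp1 was called, at 2.10 (adjusted p = 0.0146), and without double replicate 1 it stood at 0.35 (adjusted p = 0.767). Timp3, which stays bound to the matrix, had 128 to 198 CPM in 5 triple samples and 399 CPM in triple sample 3, against 296 and 316 CPM in the double samples (adjusted p = 0.344). In triple sample 3 the mesothelial markers Upk3b, Muc16 and Wt1 stood at 173, 95.7 and 33.2 CPM, and in the other 7 samples none of them exceeded 1.76 CPM. Gpm6a, Lrrn4 and Krt19 were also highest there, at 108, 75.4 and 52.9 CPM, and had at most 2.44, 8.30 and 0.73 CPM in any other sample. Krt8, Krt18, Msln and Calb2 did not share this. Krt8 stood at 24.3 CPM in triple sample 3 and at 799 CPM in double sample 2, and Calb2 had no count in triple sample 3. The 10 markers summed to 810 CPM in triple sample 3, 54.9 to 440 CPM in the other triple samples, and 288 and 1346 CPM in double samples 1 and 2. Their part in the level of Timp3 was not tested. Timp4, known for its level in heart and muscle, had 0.10 to 1.23 CPM in the triple samples, against 9.03 CPM in double sample 1 and 0.69 CPM in double sample 2. The high level was thus in double sample 1 alone, the sample with the highest adult muscle markers, and the log2 fold change was -2.86 ± 0.96 (adjusted p = 0.100), and -0.049 without double replicate 1. Exons of Timp4 overlap Syn2 on the other strand, which had 0.13 to 0.665 CPM in the triple samples, against 5.55 and 1.44 CPM in the double samples. The part of muscle transcripts or of Syn2 reads in the level of Timp4 was not tested.

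Summed per length (CPM per kilobase of exons), the 18 Mmp genes came to 521 to 969 in the triple samples, against 325 and 275 in the double samples. The 4 Timps came to 476 to 729 in the triple samples, against 399 and 458 in the double samples, and the Adamts genes to 84.6 to 134 in the triple samples, against 91.2 and 122 in the double samples. The ratio of the Mmp sum to the Timp sum was 0.89 to 1.77 in the triple samples, against 0.82 and 0.60 in the double samples. Mmp9 made up 19.7% to 46.2% of the Mmp sum in the triple samples, against 3.14% and 16% in the double samples, while Mmp2 made up 12.5% to 27.6% in the triple samples, against 60.4% and 24.9% in the double samples. The ratio of Mmp14 to Timp2 was 0.31 to 0.63 in the triple samples, against 0.19 and 0.31 in the double samples. The lowest triple value, that of triple sample 3, was close to that of double sample 2. These sums describe transcripts and were not tested.

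Adamts genes that cut proteoglycans are 7 of the 19. None of the 7 was called by edgeR or limma-voom, 1 had an unadjusted p under 0.05, DESeq2 called Adamts20, and the median log2 fold change was -0.20. Adamts5, the main aggrecanase of mouse cartilage, had 27.8, 48.6 and 98.6 CPM in the triple samples, against 85.9 and 102 CPM in the double samples (-0.80 ± 0.38, adjusted p = 0.209). Of the triple samples 5 were below both double samples and triple sample 2 was between them. Adamts4, another aggrecanase, had 20.7, 52.6 and 123 CPM in the triple samples, against 17.8 and 92.7 CPM in the double samples, and Adamts1, which cuts versican, had 52.4, 103 and 137 CPM, against 97.0 and 78.5 CPM in the double samples. Adamts20, known in the mouse for pigment cell spread, stood at 4.84 to 12.4 CPM in the triple samples, against 71.6 CPM in double sample 1 and 6.61 CPM in double sample 2. Its log2 fold change was -2.24 ± 0.64 over all samples (adjusted p = 0.0647), and 0.32 without double replicate 1. Adamts15 showed the same arrangement at a smaller scale, with 5.08 to 34.7 CPM in the triple samples, against 68.9 and 15.1 CPM in the double samples. Adamts8 and Adamts9 overlapped between the groups (adjusted p = 0.856 and 0.866).

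The procollagen peptidases Adamts2, Adamts3 and Adamts14 trim the amino ends of fibrillar procollagens. Adamts2 was even, at 168, 188 and 258 CPM in the triple samples, against 172 and 143 CPM in the double samples (0.35 ± 0.21, adjusted p = 0.310). Adamts3 was lower in level, at 3.13, 6.76 and 13.5 CPM in the triple samples, against 1.01 and 2.38 CPM in the double samples. The groups did not overlap, and the log2 fold change of 2.13 ± 0.69 did not pass the test (edgeR adjusted p = 0.0917), while DESeq2 called it (adjusted p = 0.00811). Adamts14 stood at 66.9, 102 and 159 CPM in the triple samples, against 40.0 and 133 CPM in the double samples (adjusted p = 0.707). Of these 3 genes 1 had an unadjusted p under 0.05, and limma-voom called 0.

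Among the remaining Adamts genes Adamts10, which binds fibrillin, had 64.7, 69.9 and 88.6 CPM in the triple samples, against 28 and 59.3 CPM in the double samples. The groups did not overlap, with double sample 2 just below the lowest triple value, and the log2 fold change was 0.72 ± 0.28 (edgeR adjusted p = 0.137). It was called without double replicate 2 (1.38, adjusted p = 0.00562), and stood at 0.27 without double replicate 1 (adjusted p = 0.629). Adamts13, the protease of von Willebrand factor, had 4 to 15 counts per triple sample, 51 in all, and 1 count over the double samples. Its pooled ratio was 14.5 (95% exact binomial interval 2.48 to 583, counting error only), at levels of at most 0.475 CPM (adjusted p = 0.0709). Adamts7 and Adamts12, which cut the cartilage protein Comp, overlapped between the groups, at 42.1 and 50.7 CPM as triple medians, against 30.6 and 32.1 CPM for Adamts7 and 39.1 and 54.4 CPM for Adamts12 in the double samples. Adamts6 was at 18.3 to 104 CPM in the triple samples, against 31.2 and 87.5 CPM in the double samples, and Adamts16 at 6.93 to 16.3 CPM, against 7.65 and 16.9 CPM. Adamts17 had 0.36 to 2.37 CPM in 5 triple samples and 6.65 CPM in triple sample 5, against 4.21 and 5.52 CPM in the double samples. Adamts18 was at 5.48 CPM in triple sample 2 and at 0.60 CPM or less in the other 7 samples. Adamts19, with 30 of its 46 counts in triple sample 3, was not tested. None of the 8 tested was called by edgeR or limma-voom, DESeq2 called 0 of the 7 for which it gave an adjusted p (none for Adamts18), and 2 had an unadjusted p under 0.05.

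Per length, the order of median levels over the 8 samples was Timp2, Timp1, Mmp9, Mmp2, Mmp14, Mmp3, Mmp23, Timp3, Adamts14 and Adamts2, at 290, 227, 226, 151, 110, 44.2, 27.8, 23.5, 19.6 and 19.2 CPM per kilobase. The 2 following, Adamts1 and Mmp13, stood at 17.9 and 17.8. Neighbours in this order overlapped over the samples, for example Timp1 (64.7 to 377) with Mmp9 (10.2 to 448) and Adamts14 (7.70 to 30.6) with Adamts2 (15.3 to 27.6). Mmp14 (55.5 to 184) and Mmp3 (12.1 to 67.3) overlapped only where the lowest Mmp14 values, those of the double samples, met the highest of Mmp3. In the double samples alone Mmp9 had a median of 27.1, below Mmp2 (132), Mmp14 (59.9) and Timp3 (37.6).

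**Figure D5:**
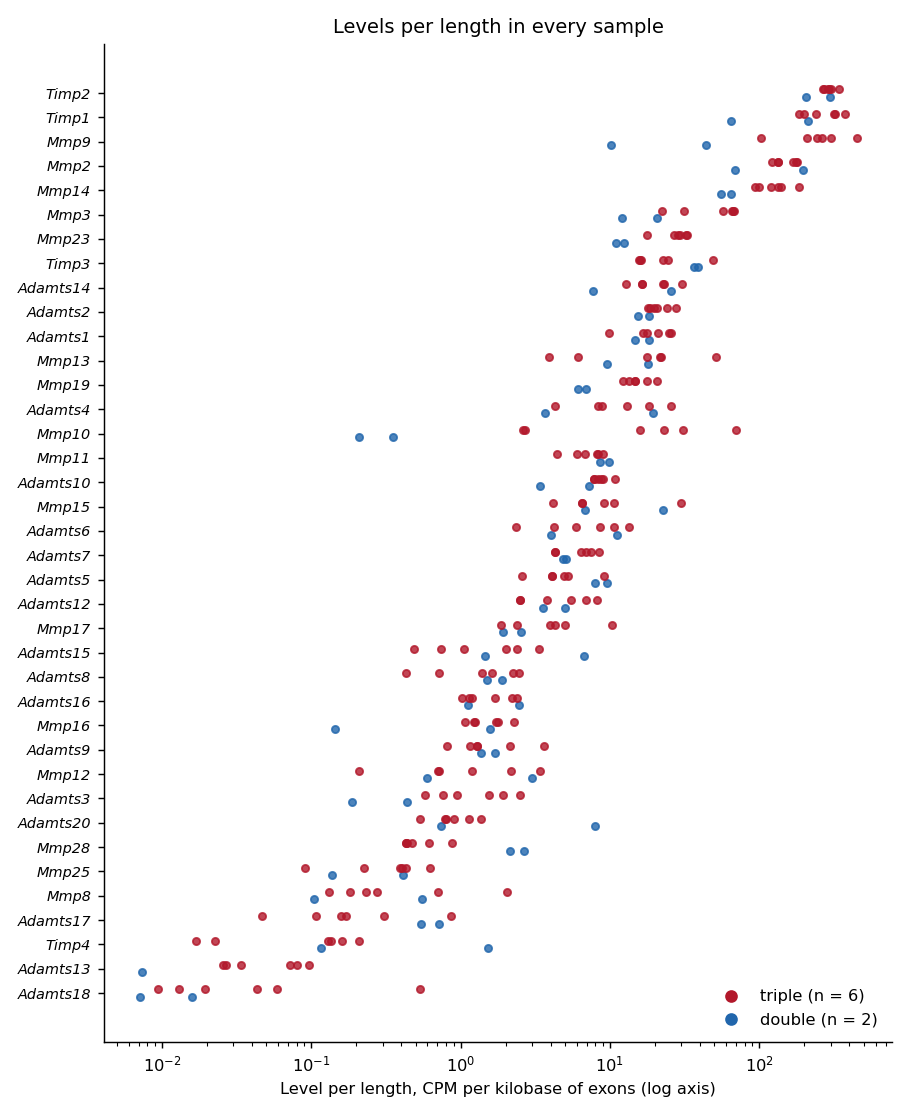
Level per length (CPM per kilobase of exons, log axis) of the 38 genes tested, ordered by their median over 8 samples; each point is 1 of 6 triple or 2 double samples, and values of 0 are not drawn. The levels span Timp2, with a median of 290, to Adamts18, with a median of 0.018, and the double points of Mmp9 and Mmp10 lie apart below the triple points.

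Within the triple group the genes varied more than most. The SD of log2 CPM over the 6 triple samples had a median of 0.67 over the 38 genes, against 0.36 over all 17709 genes tested, as a description with no test. It was lowest for Timp2 at 0.13, Adamts10 at 0.17, Adamts2 at 0.24 and Mmp2 at 0.25. The highest values were those of Mmp10 at 1.93, Adamts18 at 1.86, Mmp12 at 1.40 and Mmp8 at 1.38. The ratio of the highest to the lowest triple sample was 56.9 for Adamts18, 26.6 for Mmp10, 18.2 for Adamts17, 16.3 for Mmp12, 13.1 for Mmp13 and 4.37 for Mmp9, against 1.29 for Timp2. The highest triple values of different genes lay in different samples. Triple sample 1 led for Mmp10 and Adamts3, triple sample 3 for Timp1, Timp3 and Mmp8, triple sample 5 for Mmp15 and Mmp17, and triple sample 6 for Mmp9, Mmp12, Mmp13 and Mmp14.

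Other genes of extracellular proteolysis were taken from lists chosen with earlier results of these data known. Of 10 Adam genes tested, membrane-bound relatives of Adamts, 2 rose, 0 fell and 8 did not pass, with a median log2 fold change of 0.95. Over all genes tested, 2.94% were called higher and 5.41% lower, which is the background for this and the following lists. Adam12, a protease of mesenchymal and muscle cells, averaged 359 ± 105 CPM in the triple samples (SD, n = 6) and 112 ± 40.3 CPM in the double samples (SD, n = 2), a rise of 1.68 ± 0.38 (SE, edgeR adjusted p = 0.0322). Adam15 rose by 1.01 ± 0.19 (adjusted p = 0.0201). Of 12 cathepsins 1 rose, Ctsk, and 11 did not pass (median 0.21). Of 7 other inhibitors and activators 1 rose, Tfpi2, a Kunitz inhibitor of plasmin, with 20.5 to 71.5 CPM in the triple samples, against 4.94 and 8.77 CPM in the double samples (2.45 ± 0.53, adjusted p = 0.0298; list median 0.19). Reck, a membrane-anchored Mmp inhibitor, was at 0.94 ± 0.45 (adjusted p = 0.210).

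Of 7 Adamts-like genes, which keep the Adamts ancillary domains and lack the protease, 1 fell and 6 did not pass, with a median of -1.16. The one that fell, Thsd4, averaged 4.53 ± 3.84 CPM in the triple samples (SD, n = 6) and 29.8 ± 6.17 CPM in the double samples (SD, n = 2), and fell by 2.72 ± 0.67 (SE, edgeR adjusted p = 0.0438). Of 9 proteoglycans and related substrates 1 fell, Fmod (fibromodulin), by 4.33 ± 0.65 (adjusted p = 0.00881), and 8 did not pass, among them Vcan (versican, 1.41 ± 0.48, adjusted p = 0.104), with a list median of 0.46. In the lists named so far, DESeq2 called 4 Adam genes, 3 cathepsins, 1 inhibitor, 2 Adamts-like genes and 3 substrates, Vcan among them. Limma-voom called 2, 1, 0, 2 and 1 in the same lists, where 17.0% and 6.04% of all genes were called by these tools. The other lists gave 0 calls by edgeR, where 27.9% of all genes tested had an unadjusted p under 0.05. Of 7 plasminogen activation genes 2 had an unadjusted p under 0.05 and DESeq2 called 1 (median 0.11), of 5 astacins and procollagen factors 1 and 1 (median 0.56), and of 5 lysyl oxidases 1 and 1 (median 0.82), while limma-voom called 0 in these 3 lists. Serpine2, a plasminogen activator inhibitor, was at -1.24 ± 0.49 (adjusted p = 0.144), Tll1 (tolloid-like) at 1.69 ± 0.62 (adjusted p = 0.122) and Loxl3 at 1.76 ± 0.54 (adjusted p = 0.0775). Without double replicate 1 none of the calls named in these lists held. The 10 fibroblast markers summed to 22156 to 50008 CPM in the triple samples, against 13175 and 15814 CPM in the double samples. Most of the sum lay in Col1a1, Col1a2 and Col3a1. Of the 10, Pdgfra and Postn rose, by 1.83 ± 0.41 (adjusted p = 0.0322) and 1.58 ± 0.41 (adjusted p = 0.0483), and 8 did not pass, among them Pdgfrb at -0.50, Fap at -0.27 and Thy1 at -0.03. No fibroblast marker was called without double replicate 1. DESeq2 and limma-voom each called 3 fibroblast markers. The part of these markers in the levels of the proteases was not tested.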

How the data were processed

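RNA-seq counts of 8 samples were used, 6 triple and 2 double knockout, grouped by the genotype label. Each table holds the count of reads per gene for 1 sample, as deposited by the authors. HTSeq, DESeq2, mm10 and GRCm38 are named in the submitters' processing notes, without their roles. No source used here gives the aligner, the annotation release or the use of strand. Exons of 12 of the 41 genes overlap a gene on the other strand, whose reads cannot be told apart if strand was not used.

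Symbols came from GENCODE M21, exon lengths from the same annotation (the coordinates of 37 of the 41 genes matched it), and promoters from RefSeq (GRCm38.p6). After filterByExpr and TMM scaling, all genes entered the quasi-likelihood test of edgeR (version 4.0.16, in R 4.3.3), with calls at a Benjamini-Hochberg adjusted p under 0.05 over 17709 genes. Standard errors were derived from the test statistic. CPM uses TMM factors, and log2 CPM a prior count of 2. Tests were checked on simulated counts with a common spread for all genes and both groups. The data differ from this setting, so the check does not bear on single calls.

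Depth was 26847202 to 32082535 counts. Intervals and floors cover counting error only. Every pair of samples differed by more than counting noise (lowest median chi-square per gene 8.33). The labels do not say whether samples came from separate mice, and p-values cover only the spread among these 8, which may be technical. Replicate numbers follow accession order and pair nothing.

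The genes and lists were chosen with earlier results of these data known. Values are given in full for called genes, the 10 genes of highest median level per length, and genes without overlap and a mean of at least 1 CPM in the higher group. From other lists up to 4 called genes of smallest p, or up to 2 where none was called, were taken, and others named were chosen after their values were seen. Alternatives were DESeq2 1.42.0, limma-voom (limma 3.58.1), RLE scaling and 2 other filters. Others were the description code (SN930 or other) as a term or within its sets, and leaving out each sample.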

Additional observations from a re-analysis of the deposited data

Results flagged for a closer look

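In 6 of 38 genes 1 triple sample lay far from the other 5, judged by its gap to the nearest sample over the group's range (above 0.625). Chance flags about 1 group in 20 where values are normally distributed, which was not checked for CPM. All 6 samples lay on the high side. Mmp8 stood at 4.94 CPM in triple sample 3, with 0.32 to 1.72 CPM in the other triple samples. Timp3 stood at 399 CPM in the same sample, with 128 to 198 CPM in the others. In triple sample 5 Mmp15 stood at 162 CPM (22.3 to 57.9 CPM in the others), Mmp17 at 68.0 CPM (12.4 to 32.9 CPM) and Adamts17 at 6.65 CPM (0.36 to 2.37 CPM). Adamts18 stood at 5.48 CPM in triple sample 2, with 0.10 to 0.60 CPM in the others.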

How the results depend on the processing

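No paired analysis was possible because the labels give no replicate numbers shared between the groups. Over all genes 1478 were called, 3374 with DESeq2, 962 with the description code as a term, 1 among samples with other codes alone (0 of the 41 genes), and 315 to 5579 leaving out 1 sample. Of the 41 genes 5 were called: 10 with DESeq2 (7 higher and 3 lower), 3 with the code as a term (2 higher), and 1 to 10 leaving out 1 sample (0 to 7 higher, 1 to 3 lower). The counts lay within 1.5 times of these with RLE scaling, limma-voom and both filters. Within SN930, which holds 1 double sample, the genes called differed from these 5, so its count is not compared. The median of all genes moved from 0.018 to 0.148 without double replicate 2 and to 0.123 within SN930, and that of the listed genes from 0.26 to 0.88 and 1.13. No called gene changed direction. Genes that were not called changed sign in 11 of the 16 alternatives, with these log2 fold changes. Within SN930 Mmp2 was at -0.46, Mmp8 at -0.55, Mmp12 at 1.58, Mmp15 at 1.15, Adamts6 at 1.15, Adamts8 at 0.20 and Adamts16 at 0.93. Among other codes Mmp13 was at -0.20, Mmp25 at -0.43, Timp4 at 0.057, Adamts4 at -0.93, Adamts7 at -0.047, Adamts9 at -0.34, Adamts12 at -0.20, Adamts14 at -0.38, Adamts15 at 0.42 and Adamts20 at 0.35. With limma-voom Adamts9 was at -0.025. Leaving out 1 sample, Mmp2 ran from -0.35 to 1.15, Mmp8 from -0.0925 to 2.49, Mmp12 from -1.12 to 1.24, Mmp15 from -1.05 to 0.72, Mmp16 from -0.012 to 3.44, Mmp25 from -0.18 to 1.41, Adamts4 from -0.57 to 1.84, Adamts6 from -0.59 to 0.92, Adamts9 from -0.21 to 0.35, Adamts12 from -0.033 to 0.47, Adamts14 from -0.34 to 1.42, Adamts15 from -1.98 to 0.19, Adamts16 from -0.63 to 0.54 and Adamts20 from -3.10 to 0.32. Fits without a double sample hold 1 double sample, assumed to vary like the triple samples. The cause of these changes was not tested.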
